A study of Mus musculus with 12 samples.

Results

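The renin-angiotensin genes of the mouse testis were followed over 4 ages as 9 genes: Agt, Ren1, Ace, Agtr1a, Agtr1b, Mas1, Enpep, Lnpep and Mme. They comprised every transcript of the assembled testis transcriptome that carried 1 of these symbols and a class code of =, c, j or o, that is, a transcript that matched a reference transcript, lay within one, shared a splice junction with one or overlapped its exons. The rule found 40 of 71967 transcripts. Of these, 25 belonged to Ace, 5 to Mas1, 3 to Mme, 2 to Lnpep and 1 to each of the other 5 genes. Summed per symbol, they were 9 of 24516 genes. The RNA came from whole testes of wild-type male C57BL/6 mice aged 3, 6, 12 and 18 months (3M, 6M, 12M and 18M), with 3 libraries at each age. The labels name no transgene or treatment, and age was the only difference they name. Cohort and batch are not given, so differences in them cannot be told apart from age. Total RNA was sequenced after removal of ribosomal RNA. The study calls the libraries of an age biological replicates, its labels name no animals, and whether mice of an age were littermates is not known, so the p-values measure the spread between these libraries.

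The renin-angiotensin system is a chain of peptide cleavages. Renin cuts angiotensinogen, the product of Agt, to angiotensin I, and angiotensin-converting enzyme (ACE) removes a dipeptide from it to give angiotensin II, which acts through the type 1 receptors that mice encode in the paralogs Agtr1a and Agtr1b. Other peptidases shorten these peptides further, and MAS1 is a receptor linked to angiotensin-(1-7). ACE is made in separate forms from a single gene: the long somatic form of endothelium and epithelia carries both catalytic domains, while the short testis form starts at a promoter inside the gene, is made in developing sperm cells, carries the C-terminal domain alone and is needed for male fertility.

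The 2 forms of Ace lie on chromosome 11, on the forward strand, and the assembled gene spanned chr11:105966630-105989964 on mm10. The somatic RefSeq transcripts NM_001281819 and NM_207624 started at position 105967945. The testis transcript NM_009598 started at 105975208, within intron 12 of NM_207624 and 329 bases after the end of its exon 12. Because the finding on this gene turns on which start is used, the 250 bases before each RefSeq start are shown, 5′ to 3′ on the forward strand, with matches to the searched motifs in capitals. The bases are from RefSeq on GRCm38.p6, the assembly that mm10 also names, and its starts lay 3 bases after the somatic and 19 bases before the testis start of the deposited transcripts.
somatic Ace promoter, chr11:105967698-105967947: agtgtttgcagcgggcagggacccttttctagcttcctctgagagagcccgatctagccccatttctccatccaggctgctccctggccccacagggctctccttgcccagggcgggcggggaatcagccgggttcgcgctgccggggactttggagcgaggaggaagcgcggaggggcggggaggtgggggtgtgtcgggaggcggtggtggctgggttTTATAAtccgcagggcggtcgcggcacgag
testis Ace promoter, chr11:105974939-105975188: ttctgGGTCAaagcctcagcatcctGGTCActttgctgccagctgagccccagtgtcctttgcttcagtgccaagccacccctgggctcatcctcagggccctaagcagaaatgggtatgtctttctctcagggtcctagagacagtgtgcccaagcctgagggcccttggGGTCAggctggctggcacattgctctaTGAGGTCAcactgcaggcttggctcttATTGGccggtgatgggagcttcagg
The searched motifs, read on both strands, were TGACGTCA (the cAMP response element), TGAGGTCA (a variant of it), TGACG and GGTCA (parts of these and of other factors' sites), TATAA and CCAAT. The somatic window held TATAA 29 bases before the start, with an overlapping match on the reverse strand. The testis window held no TATAA, but TGAGGTCA 52 bases before the start, 4 matches to GGTCA, of which 1 lies inside TGAGGTCA, and CCAAT on the reverse strand, printed as ATTGG, 25 bases before the start. Among 32851 RefSeq promoters of the same length, 1.94% held TGAGGTCA, 1.55% TGACGTCA, 17.8% TGACG, 35.2% GGTCA, 22.8% TATAA and 33.8% CCAAT. The windows also differed in composition, with 19 CpG dinucleotides and 67.2% G and C before the somatic start against 1 CpG and 58.0% before the testis start (median of all promoters 6 CpG and 52.4%). A match describes these letters and is not a binding site.

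The libraries held 50924104 to 71803379 estimated reads, of which 94.28% to 95.05% fell on the genes counted here. Reads per gene are given as CPM, which is scaled to library size with TMM factors but not to length, and levels of different genes are compared only in FPKM, which is also scaled to transcript length and was summed over a gene's transcripts. Agt and Ace led the 9 genes by far, at a mean of 101.5 FPKM (67.9 to 142.0 over the 12 libraries) and 85.7 FPKM (68.9 to 136.6), above 96.7% and 95.9% of all genes. The summed FPKM of Ace also depended on how reads were divided among its transcripts, which differ in length. It was 132.9 and 136.6 in 3M-1 and 18M-1 and at most 79.9 in the others, while Ace lay between 597.8 and 677.0 CPM throughout. The order of Agt and Ace thus rests in part on that division. Agtr1a followed at 8.10 FPKM (7.03 to 9.84) and Mas1 at 7.73 (6.08 to 8.50). Lnpep stood at 2.68 FPKM (1.88 to 3.14), Mme at 1.12 (0.741 to 1.36), Agtr1b at 0.486 (0.337 to 0.601), Ren1 at 0.157 (0 to 0.435) and Enpep at 0.028 (0 to 0.0487). The ranges of neighbours in this order overlapped for Agt and Ace, for Agtr1a and Mas1, for Agtr1b and Ren1 and for Ren1 and Enpep, and did not overlap for the other neighbours.

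None of the 9 genes passed the test for a change with age. In edgeR's quasi-likelihood test of a slope over all 12 libraries, 0 of the 8 members tested had a Benjamini-Hochberg adjusted p of 0.05 or less, where 0.414% of all 18367 genes did, and Enpep had too few reads to be tested. For any difference between the ages, 0 of 9 passed, against 0.0917% of 18545 genes, and for 3M against 18M with a change of at least 1 on the log2 scale, 0 of 8 passed, against 0.0496% of 18130 genes. At an unadjusted p of 0.05 or less, Ren1, Lnpep and Mme passed in the test of slope, where 17.5% of all genes did, and Agt, Ren1 and Mme in the test of any difference, where 10.3% did. Ren1 alone passed that p with the fold threshold for 3M against 18M, where 0.827% of all genes did. Without 18M-3, which had the lowest or nearly the lowest Lnpep and Mme reads of all libraries, neither gene passed the test of slope at that p. DESeq2 called Agt in the test of any difference (1.72% of 22636 genes called) and no member for slope (2.5% of 22627) or for 3M against 18M (0.19% of 22108). It left the adjusted p of Ren1 empty, and its unadjusted p was 9.39e-05 for slope and 0.000973 for 3M against 18M. Among the members' transcripts, 0 of the 32 tested passed for slope, against 0.00881% of 56784 transcripts, and 0 passed for 3M against 18M, against 0.108% of 54472. At an unadjusted p of 0.05 or less 5 of the members' transcripts passed for slope, where 6.99% of all transcripts did, and 4 passed for 3M against 18M with the fold threshold, where 2.57% did. DESeq2 called 5 for slope, against 1.72% of 62391 transcripts, and 3 for 3M against 18M, against 2.03% of 62209. Those called by DESeq2 were assembled variants of Ace and, for slope, the Ren1 transcript. In this bulk tissue, fewer cells of a type and less RNA per cell cannot be told apart.

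**Figure D1:**
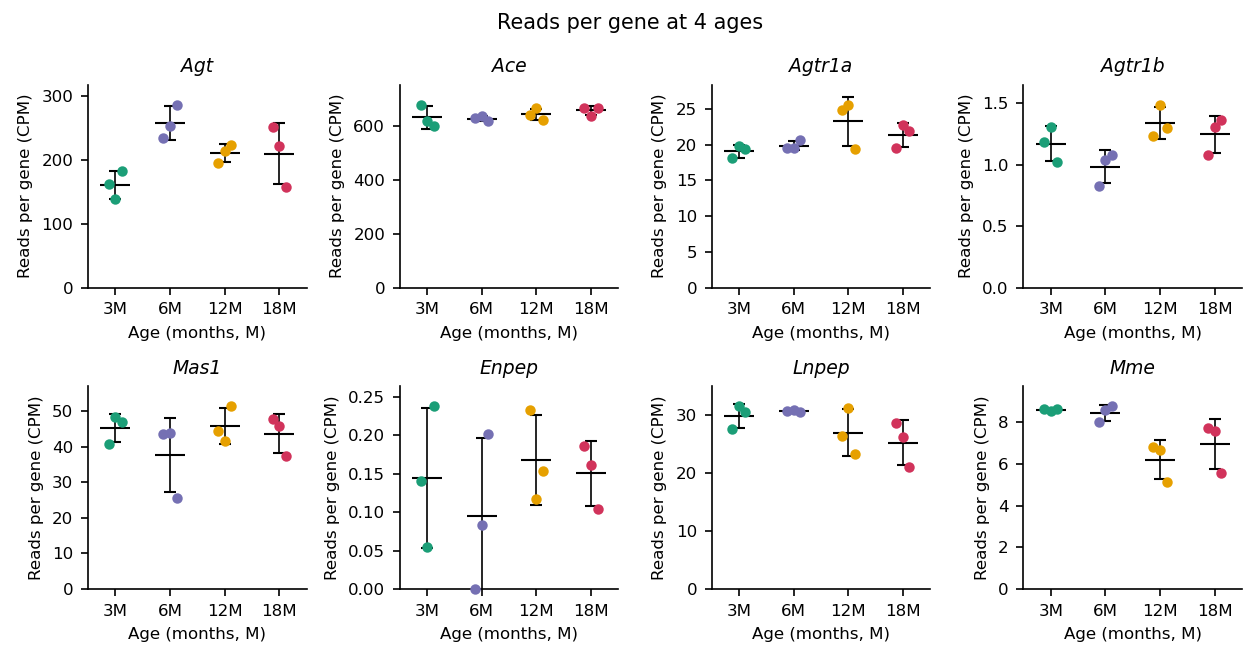
Reads per gene (CPM, y axis from 0) of 8 renin-angiotensin genes at 4 ages, with a point per library and the mean ± SD of 3 libraries in black (bars end at 0). Agt was lowest at 3M and highest at 6M, Ace stayed between 597.8 and 677.0 CPM, and Mme was lower in each 12M and 18M library than in each 3M library.

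Agt encodes angiotensinogen, the sole substrate of renin. Its reads were 162.4, 139.3 and 183.3 CPM at 3M, 235.1, 253.5 and 286.9 at 6M, 196.2, 214.0 and 223.6 at 12M, and 251.7, 222.0 and 157.6 at 18M. All 6M and 12M libraries lay above all 3M libraries, while 18M overlapped 3M because 18M-3 fell among the 3M values. The mean was 161.7 ± 22.0 CPM (SD, n = 3) at 3M and 258.5 ± 26.3 at 6M, a ratio of 1.60. Agt did not pass edgeR's quasi-likelihood test of any difference between the ages (adjusted p = 0.327). DESeq2's likelihood ratio test passed the same comparison (adjusted p = 0.0087). As a slope, Agt moved 1.09-fold over 15 months (log2 0.0083 ± 0.0144 SE per month, adjusted p = 0.802), and the slope turned to -0.0011 without the second 3M library.

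Ren1 encodes renin, which makes the first cut of angiotensinogen. The reads assigned to it were 5, 5 and 0 at 3M, 9, 0 and 10 at 6M, 19, 25 and 18 at 12M, and 25, 11 and 48 at 18M. Each 12M and 18M library was above each 3M and 6M library, and the mean CPM at 18M was 7.26 times that at 3M (log2 slope 0.179 ± 0.0476 SE per month, adjusted p = 0.113, edgeR). The annotation used for the table, however, held a Ren2 transcript on the same stretch of chromosome 1 (chr1:133350566-133360323), which encloses that of Ren1 (chr1:133350674-133360319). Ren2 is the duplicate renin gene of some mouse strains, and C57BL/6 mice carry a single renin gene.

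The reads given to Ren2 were 15, 11 and 19 at 3M, 11, 29 and 6 at 6M, 0, 0 and 17 at 12M, and 0, 0 and 1 at 18M. They were high where those of Ren1 were low: the library with no Ren1 read at 3M had the most Ren2 reads of that age, and the library with no Ren1 read at 6M had the most of all. By age, the Ren1 reads summed to 10, 19, 62 and 84 and the Ren2 reads to 45, 46, 17 and 1. Both entries summed to 16 to 20 reads per library at 3M and averaged 0.348 CPM. At 6M they summed to 16 to 29 reads with an average of 0.438 CPM. The libraries of 12M held 19 to 35 reads (0.476 CPM), those of 18M held 11 to 49 (0.471 CPM), and the ages overlapped. The slope of the sum was 0.026 ± 0.024 SE (log2 per month, adjusted p = 0.599), which was 1 of the alternatives chosen after seeing the data. The separation of the ages seen in the Ren1 entry was not present in the reads of the locus as a whole.

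**Figure D2:**
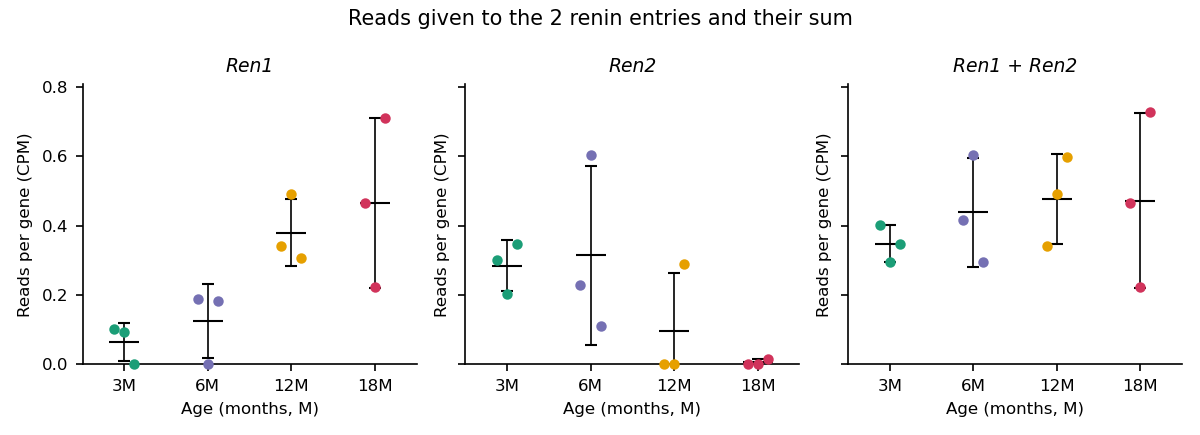
Reads (CPM, y axis from 0) given to the Ren1 entry, to the Ren2 entry and to both at 4 ages, with a point per library and the mean ± SD of 3 libraries in black. Ren1 was higher and Ren2 lower in the older libraries, and the sum of the reads overlapped between the ages, at a mean of 0.348 CPM at 3M and 0.471 CPM at 18M.

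Ace had the narrowest span in CPM of the 9 genes, as the ratio of the highest to the lowest library, though not in FPKM. Its reads were 677.0, 615.3 and 597.8 CPM at 3M, 626.3, 635.2 and 615.7 at 6M, 640.0, 663.8 and 620.3 at 12M, and 664.6, 637.2 and 666.4 at 18M. Each 18M library lay above each 6M library by a narrow margin, all other ages overlapped, and the change over 15 months was 1.05-fold (log2 slope 0.0043 ± 0.0028 SE per month, adjusted p = 0.436, edgeR), with 18M against 3M at 0.06 ± 0.05 on the log2 scale (SE, adjusted p = 0.641). The root mean square deviation of Ace from its own mean was 0.0537 in log2 CPM over the 12 libraries, and 8.45% of 9873 genes at a mean of at least 10 CPM deviated less. The 5 genes whose centred log2 CPM ran closest to that of Ace over the 12 libraries were Gpd2 (root mean square difference 0.0314), Jazf1 (0.0336), Pank4 (0.0341), Emc10 (0.0367) and Akap3 (0.0376), where the median gene differed by 0.113. As Ace varied so little, this likeness describes genes whose summed reads were also flat. A sum can hide changes of single transcripts: the study lists a transcript of Akap3 as increased between 3M and 18M.

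The exons separated the forms of Ace more directly than the transcripts did. The long form, with its exons taken from NM_207624, has 12 exons that the testis form lacks. The testis form has 1 first exon of its own (chr11:105975208-105975403), and 13 exons are shared. Coverage, the mean number of reads over each base of an exon, was summed over all 25 Ace transcripts in each library. An assembled exon carries a single mean, and where it runs past an exon listed here, that mean was used for the overlap. The values thus depend in part on the assembled exons. The mean over the 12 somatic-only exons lay between 34.1 and 57.6 in the 12 libraries, and the mean over the 13 shared exons between 1300 and 1909. In every library the shared exons were thus covered 25.5 to 40.1 times as deeply as the exons specific to the somatic form (median 27.8).

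Coverage was low along the somatic-only exons and stepped up at the first shared exons. It lay between 3.11 and 11.8 at exon 1, between 45.8 and 72.6 at exon 10 and between 129.9 and 210.6 at exon 12. The first shared exon stood at 471.2 to 841.0, and the most deeply covered shared exon, exon 24 in the order plotted, reached 2058 to 3340. In each library every shared exon exceeded the highest somatic-only exon other than exon 12 at least 5.14-fold. The testis first exon had a coverage of 64.8 to 117.3 in 10 libraries, below exon 12 of the same library, and of 240.8 and 286.3 in 3M-1 and 18M-1. Exon 12 and 2 other somatic-only exons overlap exons of Gm11651, an RNA on the opposite strand at 5.01 to 7.52 FPKM, and the libraries carried no strand information. Without those 3 exons, the somatic-only exons had 1.83% to 3.04% of the coverage of the shared exons, against 2.49% to 3.92% with them.

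**Figure D3:**
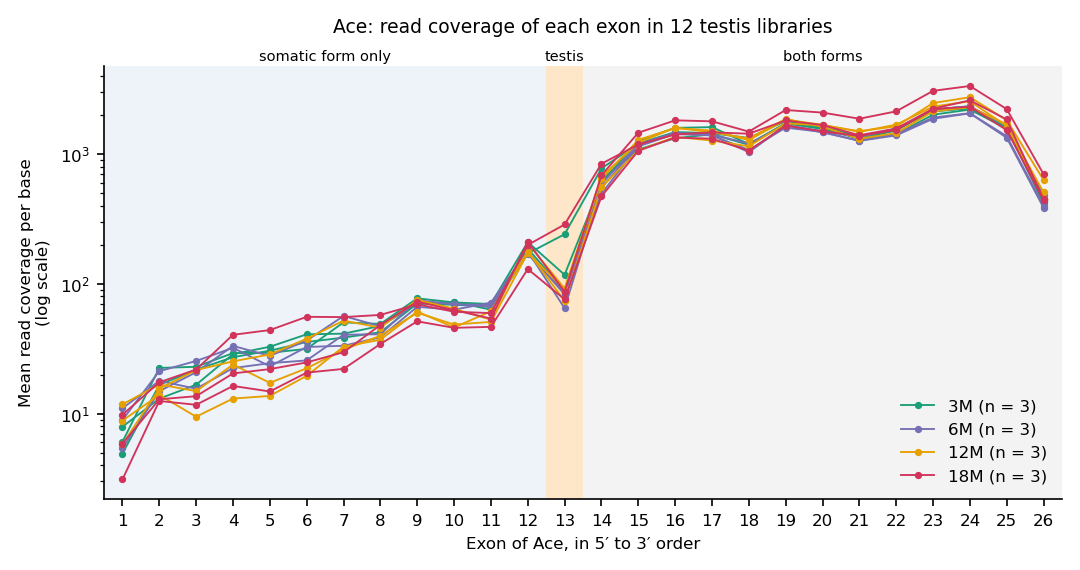
Mean read coverage per base (y axis, log scale) of the 12 somatic-only exons of Ace, the testis first exon and the 13 shared exons (x axis, exon order), with a line per library coloured by age. All 12 lines stay at or below 286.3 up to the testis first exon and step up after it, to 471.2 to 841.0 at the first shared exon.

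With age, the coverage of somatic-only exons as a percent of that of shared exons was 3.46, 3.92 and 3.61 at 3M, 3.72, 3.76 and 3.65 at 6M, 2.76, 3.58 and 2.74 at 12M, and 3.76, 2.49 and 2.52 at 18M. The 6 libraries of 3M and 6M lay together, and 4 of the 6 libraries of 12M and 18M lay below all of these. The mean was 3.66 ± 0.23 at 3M and 2.92 ± 0.73 at 18M (SD, n = 3), a difference of -0.739 percentage points, and the ages overlapped (two-sided exact permutation test, p = 0.3, where 3 against 3 libraries cannot give less than 0.1).

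The deposited values gave the Ace transcripts very different shares of the gene from library to library. The testis transcript NM_009598 stood at 91.9 FPKM in 3M-1 and 96.5 in 18M-1, and at 6.34 to 10.4 FPKM in the other 10 libraries. As a percent of all Ace FPKM it was 69.1 and 70.6 in those libraries against 8.57 to 13.7 in the others. The sum of Ace FPKM followed, at 132.9 and 136.6 against 68.9 to 79.9, while the reads per gene in 3M-1 and 18M-1 (677.0 and 664.6 CPM) lay close to the others. In the remaining libraries most reads of the shared exons were given to transcripts that start upstream, such as NM_001281819 at 13.5 to 28.1 FPKM and the assembled MSTRG.3744.3 at 16.9 to 25.2 FPKM, and across libraries 89.4% to 97.1% of the read bases of the 24 such transcripts lay in the part shared with the testis form.

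The age comparison of the testis transcript rested on those libraries. Its percent of Ace FPKM was 30.9 ± 33.2 at 3M and 30.4 ± 34.9 at 18M (SD, n = 3, two-sided exact permutation test, p = 0.9), since 1 library of each age was high. The difference of -0.483 percentage points became -20.6 without 18M-1 and 18.6 without 3M-1. NM_009598 changed by 0.0175 per month on the log2 scale (edgeR, adjusted p = 1.0), and by -0.134 without 18M-1. The testis first exon and the first shared exon were also covered most deeply in 3M-1 and 18M-1 (240.8 and 286.3, and 774.4 and 841.0), while the mean over all shared exons in these libraries (1458 and 1531) lay within the range of the others. The parts of testis RNA and of the assembler's division of shared reads in the high values of these libraries were not tested.

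**Figure D4:**
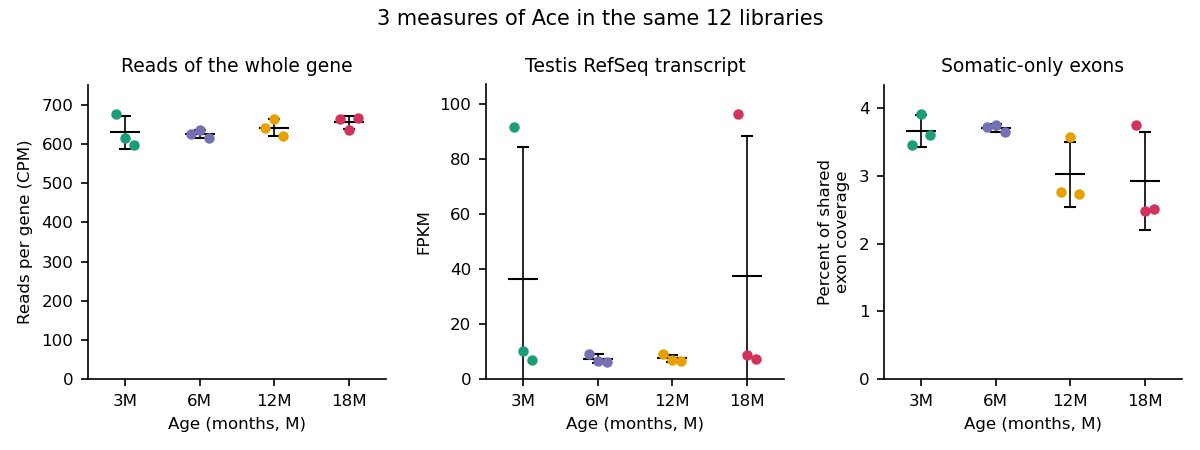
Reads of the whole Ace gene (CPM), the testis transcript NM_009598 (FPKM) and the somatic-only exons as a percent of shared exon coverage, each with its y axis from 0, with a point per library and the mean ± SD of 3 libraries at each age in black (bars end at 0). The reads lie between 597.8 and 677.0 CPM in all libraries, whereas the testis transcript is at 91.9 and 96.5 FPKM in 1 library each of 3M and 18M and at 6.34 to 10.4 FPKM in the other 10.

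The lowest p-values among the members' transcripts belonged to assembled Ace variants with few reads. MSTRG.3744.4 had 180, 310 and 438 reads at 3M, 3, 38 and 8 at 6M, 6, 7 and 4 at 12M, and 0, 0 and 2 at 18M. MSTRG.3744.6 had 542, 285 and 267 at 3M, 12, 6 and 19 at 6M, 16, 15 and 21 at 12M, and 0, 0 and 2 at 18M. Most of the drop thus lay between 3M and 6M and was not a steady decline. The log2 slopes were -0.58 ± 0.08 and -0.52 ± 0.09 per month (SE, adjusted p = 0.108 and 0.190, edgeR), and DESeq2 called both. These variants span the whole gene, both at chr11:105966659-105989949, and at 3M they held 0.550 and 0.758 of the 92.6 FPKM of the gene.

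Agtr1a and Agtr1b encode the paralogous angiotensin II type 1 receptors. Agtr1a stood at 18.1, 19.8 and 19.4 CPM at 3M, 19.5, 19.5 and 20.6 at 6M, 24.9, 25.6 and 19.3 at 12M, and 19.5, 22.7 and 21.9 at 18M. The highest values were those of 12M-1 and 12M-2, and all ages overlapped (1.15-fold over 15 months, log2 slope 0.0136 ± 0.0069 SE, adjusted p = 0.322). Agtr1b had 40 to 92 reads per library and 0.832 to 1.49 CPM, with each 12M library above each 6M library and the other ages overlapping (adjusted p of the slope = 0.501). Per length, Agtr1a was the higher in each library, at 7.03 FPKM or more against 0.601 or less. Both have a single RefSeq transcript here, NM_177322 on chromosome 13 and NM_175086 on chromosome 3.

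Mas1 encodes the receptor linked to angiotensin-(1-7). It stood at 37.3 to 51.3 CPM in 11 libraries and at 25.6 in 6M-3, and its slope was 0.0041 ± 0.0113 SE (adjusted p = 0.882), or -0.0018 without that library. Its RefSeq transcript NM_008552 held 336 reads in 6M-3 and 614 to 1361 elsewhere, and the other reads were given to 4 assembled variants. One of these, MSTRG.8537.1, had 746 reads in 18M-3 against 18 to 57 in the other 11 libraries. It reaches from chr17:12808545 into the region of Airn, a long RNA of the opposite strand whose summed level was 0.0772 to 0.615 FPKM, and without strand information their reads cannot be told apart.

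Among the peptidases that shorten angiotensins, Enpep (aminopeptidase A, which removes the first residue of angiotensin II) had 0 to 13 reads per library and at most 0.0487 FPKM. An age difference was not detectable at this depth.

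Mme encodes neprilysin, which cleaves angiotensin I and many other peptides. Its reads were 8.65, 8.54 and 8.63 CPM at 3M, 8.004, 8.59 and 8.77 at 6M, 6.84, 6.68 and 5.14 at 12M, and 7.73, 7.61 and 5.56 at 18M. All 12M and 18M libraries lay below all 3M and 6M libraries. The change was 0.764-fold over 15 months (log2 slope -0.0259 ± 0.0095 SE, adjusted p = 0.202, edgeR), and 18M stood at 0.809 of 3M (log2 -0.30 ± 0.13 SE, adjusted p = 0.377), which became -0.16 without 18M-3. The reads of the gene were split between RefSeq variants with separate starts, in most libraries in an all-or-none way: NM_001289462 had 2, 464 and 472 reads at 3M where NM_001289463 had 428, 0 and 0. Such splits occurred at each age, so the variants were read as a sum.

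Lnpep encodes the insulin-regulated aminopeptidase, the binding site of angiotensin IV. It stood at 27.5, 31.4 and 30.5 CPM at 3M, 30.6, 30.7 and 30.5 at 6M, 26.3, 31.2 and 23.2 at 12M, and 28.6, 26.1 and 21.0 at 18M, and 3M overlapped 18M, while each 18M library lay below each 6M library. The change was 0.823-fold over 15 months (log2 slope -0.0187 ± 0.0070 SE, adjusted p = 0.209). Without 18M-3 the slope was -0.0117.

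As in Ace, most reads of Lnpep came from the 3′ part of the gene. The gene lies on the reverse strand of chromosome 17, and beside the RefSeq transcript NM_172827 (chr17:17527723-17624489) the assembly held MSTRG.8602.1 (chr17:17521450-17554645), whose first exon at chr17:17554112-17554645 lies inside the gene. This variant held 1239 to 1579 reads per library and the RefSeq transcript 48 to 235, at lengths of 10126 and 5181 bases. Per length they stood at 1.749 to 2.605 and 0.130 to 0.837 FPKM. The variant also runs past the 3′ end of the RefSeq transcript, so not all its reads lie in shared exons. The 9 exons before that start had a mean coverage of 1.97 to 8.20 and the 9 exons after it 14.2 to 23.8, which was 2.30 to 8.98 times as much (median 4.42). At 3M this ratio averaged 3.48 ± 0.93 and at 18M 6.45 ± 2.36 (SD, n = 3), with overlapping values. The internal first exon itself was covered only 1.39 to 3.61 times per base.

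**Figure D5:**
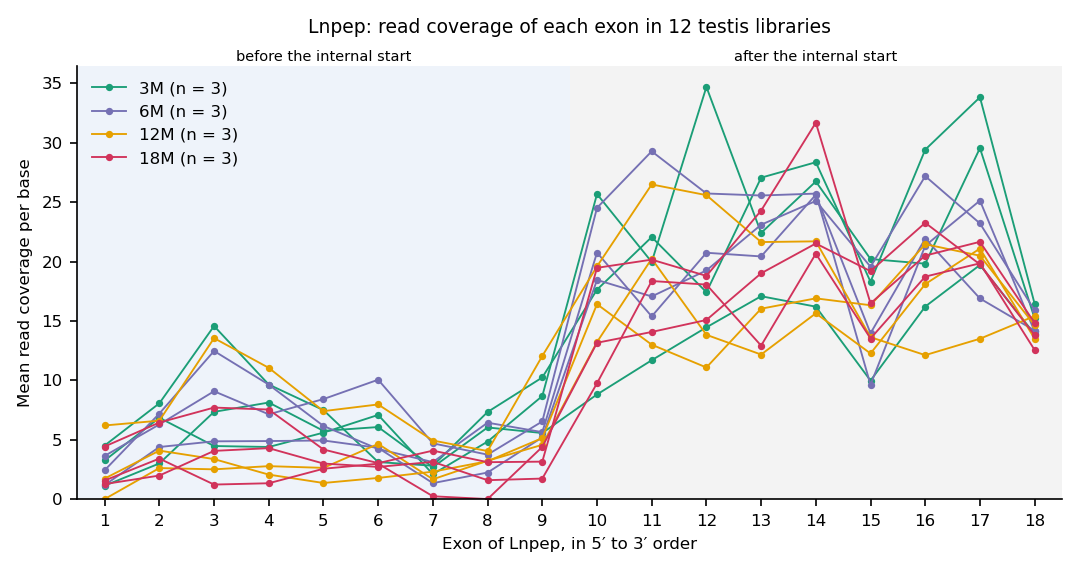
Mean read coverage per base (y axis from 0) of 18 exons of Lnpep in 5′ to 3′ order, with a line per library coloured by age. The 9 exons before the internal start average 1.97 to 8.20 per library and the 9 after it 14.2 to 23.8.

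A list of 32 other genes held parts of the renin-angiotensin system, peptidases that can act on angiotensins, kinin and natriuretic peptide genes that meet this system, and the testis gene Tex101. Of these, 26 had enough reads to be tested, 1 fell and none rose at an adjusted p of 0.05 or less. In all genes 18 rose and 58 fell. At an unadjusted p of 0.05 or less, 2 of the list had a positive slope and 4 a negative one, Ren2 among them, where 1446 and 1763 of all 18367 genes did. The median slope of the list was -0.0046 per month against -0.00038 over all genes. The gene that fell was Ece1, an endothelin-converting metalloprotease related to neprilysin, which averaged 15.6 ± 1.0 CPM at 3M and 10.5 ± 1.1 CPM at 18M, with 14.4 ± 0.8 and 11.5 ± 0.8 CPM at the ages between (SD, n = 3, log2 slope -0.0395 ± 0.0057 SE, adjusted p = 0.00959, edgeR). Ctsc, Dpp3 and Prcp, all peptidases, were at 0.725-fold, 0.905-fold and 1.10-fold over 15 months and did not pass (adjusted p = 0.198, 0.274 and 0.264). Ctsg, Cma1 and Mcpt4, serine proteases that can make angiotensin II without ACE, had no reads in any library.

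The tissue carried the markers of testis. The 8 spermatid genes summed to 20910 FPKM or more in each library and all had positive slopes, none at an adjusted p of 0.05 or less. The 6 epididymal genes summed to at most 3.48 FPKM, most of it from Rnase10 (mean 2.41 FPKM). Spink8, Crisp1 and Lcn8 averaged 0.403, 0.0987 and 0.0121 FPKM, and Lcn5 and Adam7 had no reads. Of 6 Leydig cell genes 3 fell (Cyp11a1, Cyp17a1 and Lhcgr). Star and Insl3 had negative slopes that did not pass (adjusted p = 0.0765 and 0.238, edgeR), and the slope of Hsd3b1 was positive (0.003). The list summed to 967 to 1118 FPKM at 3M and 681 to 941 at 18M, but its highest sum, 1654 FPKM, was that of a 6M library. Most of the sum was Insl3, with a mean of 841.4 FPKM against 52.93 or less for each other gene of the list. None of the 6 Sertoli, 6 spermatogonial, 6 spermatocyte, 5 peritubular, 5 endothelial and 5 macrophage genes passed. All 5 peritubular and all 5 macrophage genes had negative slopes. Negative slopes also outnumbered positive ones among the Sertoli (4 and 2), spermatogonial (4 and 2) and endothelial genes (4 and 1, Kdr). Among the spermatocyte genes 5 slopes were positive and 1 negative. The 5 endothelial genes summed to 5.16 to 5.65 FPKM at 3M and 4.49 to 5.10 at 18M. The part of these cell types in the values of Mme, Lnpep and Ece1 was not tested.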

How the data were processed

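Total RNA of whole testes was sequenced in paired ends without strand information. Per the labels and the study's methods, HISAT2 was used by the authors for alignment on mm10, and the file headers name StringTie 1.3.3b for assembly and quantification. They deposited estimated counts and FPKM values per transcript and library, and transcript assemblies with the coverage of each exon. The deposited coverage is a signal of mean reads per base. The estimated counts are whole numbers derived from that coverage, not tallied reads, and were used without rounding. Reads on exons that transcripts of a gene share were divided among them by the authors' assembler, so values per transcript depend on that division. Summed reads per gene do so only where genes share reads, as Ren1 and Ren2 do. Summed FPKM per gene does so wherever a gene's transcripts differ in length, as those of Ace do.

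Reads were summed per gene symbol over classes =, c, j and o and tested by quasi-likelihood in edgeR 4.0.16, under R 4.3.3, after filterByExpr and TMM scaling (also used for CPM), with Benjamini-Hochberg adjustment over all features. All 12 libraries entered the tests of slope and of any difference, and 6 entered 3M against 18M. Calls needed an adjusted p of 0.05 or less and, between 3M and 18M, a log2 change of 1 or more in size. Standard errors were derived from the log2 change and its F statistic. DESeq2 1.42.0 was the alternative, and members whose adjusted p it left empty (Ren1 and Enpep per gene) were not counted. In simulated counts, every planted log2 change was of 1 or more in size. The tests of genes recovered most of these, and those of transcripts recovered only large ones. Smaller changes, the size seen in all tested members but Ren1, were not simulated, so the absence of calls does not show stability. Exon coverage was summed over a gene's transcripts, with the mean of an assembled exon used for any part of it. Ace shares were compared by exact permutation tests. Python 3.11.15, pandas 2.3.3, scipy 1.17.1 and matplotlib 3.10.9 served for the rest.

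The members and lists were chosen with earlier results of these data known. Named were all 9 members, their transcripts with a mean of 0.1 FPKM or more at any age as far as a result turned on them, pathway genes at 1 CPM or more with an unadjusted slope p of 0.05 or less, and the 5 genes at 10 CPM or more most like Ace. Other genes named were chosen after their values were seen. RefSeq promoters matched 8 of the 9 members, and Agtr1a had none in the table used.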

Additional observations from a re-analysis of the deposited data

How the results depend on the processing

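The tests of genes called 0 members under library size alone, DESeq2's size factors, no filter beyond 1 read, transcripts of all classes, the summed renin reads and the fit without any 1 library (0 to 0 in each test). DESeq2 called 1 member (Agt) for any difference between ages. An unadjusted p of 0.05 or less passed 3 members for slope, 3 for any difference and, with the fold threshold, 1 (Ren1) for 3M against 18M. Of all genes, 17.5%, 10.3% and 0.827% passed these. Among transcripts, DESeq2 called 5 for slope and 3 for 3M against 18M, all 12 libraries in 1 fit called 1 (MSTRG.3744.6), an unadjusted p passed 5 and 4, and leaving out 1 library passed 0 to 0. Over the whole table DESeq2 called 566 genes for slope (76 by edgeR), 389 for any difference (17) and 42 for 3M against 18M (9), and 1075 and 1263 transcripts (5 and 59). Without a filter 45 genes had a slope and 22 transcripts differed, and all 12 libraries in 1 fit called 18 genes and 18 transcripts. Without 1 library these edgeR counts ran from 18 to 197, 8 to 46 and 11 to 20 genes and from 3 to 6 and 8 to 25 transcripts. The cause of these differences was not tested.

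The libraries carry the same replicate numbers at each age, but these did not pair them: the correlation of same-numbered libraries' deviations ran from -0.0545 to 0.155. With the number as a replicate block, 0 members were called in each test, among 42 genes called for slope, 9 for any difference and 7 for 3M against 18M over the whole table. The block left 0 of 54472 transcripts called for 3M against 18M, against 59 without it, and turned the change of NM_009598 to -0.0315. Taken as pairs, the Ace shares gave the same differences of -0.739 and -0.483 (replicate block chosen after seeing the data, exact sign-flip tests, p = 0.5 and 0.75, where 3 pairs cannot give less than 0.25).

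Without 1 library, the somatic-only percent of Ace differed by -1.16 to -0.523 between 18M and 3M, and by -0.391 to -0.976 under the other ways to average exons. The testis percent of Ace FPKM ran from -20.6 to 18.6 without 1 library and turned to 0.687 as a percent of reads. Of 576 values of members under an alternative, 558 kept direction and side of the threshold, 6 crossed it and 12 turned: without 1 library the slopes of Agt ran from -0.0011 to 0.0203, of Mas1 from -0.0018 to 0.0105 and of NM_009598 from -0.134 to 0.148, and the 18M minus 3M terms of Mas1 from -0.1195 to 0.052 with 6 libraries and from -0.1213 to 0.0576 with all 12, of Enpep from -0.35 to 0.61 and of NM_009598 from -2.17 to 2.11. Depth limits Enpep and Ren1, with at most 13 and 48 reads per library.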
